A study of Mus musculus with 9 samples.

Results

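The p53 target genes described here are 10 rows of a counts table of 24421 genes, chosen by symbol as targets that mitotic arrest can induce: Cdkn1a, Mdm2, Ccng1, Bax, Bbc3, Sesn2, Trp53inp1, Gdf15, Phlda3 and Zmat3. All 10 were in the table, and all 10 had enough reads to be tested in both comparisons. The table holds RNA-seq read counts of 9 libraries from brains of C57BL/6 mice, in 3 groups of 3. The control group carried SB28 glioma and received vehicle, and the BAL101553 group carried SB28 and received BAL101553 (lisavanbulin), an oral prodrug of a compound that disrupts microtubules and activates the spindle assembly checkpoint. The 3 libraries labelled astrocytes also bear the BAL101553 treatment label, and how those cells were isolated was not given in the sources used here. For the tumor libraries the labels say whole tissue, whereas the study's methods describe SB28 cells sorted as CD45-CD11b-GFP+. SB28 is a single mouse glioma line that expresses GFP and luciferase and was made with a p53 knock-down, so all 6 tumor libraries carry the knock-down and no SB28 library without it was analysed here. The study's methods describe fewer ex vivo samples per group than the table holds, and which libraries they refer to was not given in the sources used here. Treated tumors were harvested later than control tumors, so that treatment and harvest time cannot be told apart.

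p53, encoded by Trp53, is a transcription factor that is held at low protein levels by the ubiquitin ligase Mdm2 and accumulates after DNA damage or prolonged mitosis. It then switches on genes that stop the cell cycle, start apoptosis or limit growth signalling, and it is controlled mostly at the level of the protein, so that Trp53 mRNA alone does not report its activity. In glioma the pathway is commonly disabled, by mutation of p53 itself or by loss of the Cdkn2a locus, whose Arf product restrains Mdm2. Several of its targets, among them Sesn2 and Gdf15, are also induced by the stress factor Atf4 without p53.

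p53 binds DNA at pairs of a 10-letter consensus, and promoter windows reaching from 250 bases before to 50 bases after each annotated start (RefSeq, GRCm38.p6) were searched for it. The consensus reads alike on both strands, so a single search covered them. A decamer was present in 2745 of 32851 windows of this length (8.36%). Of the 10 targets, 8 had a window and 4 of these 8 held a decamer, Cdkn1a, Mdm2, Ccng1 and Bax, beside 9.55% of all genes with a window. Counted by window it was 4 of 12. Their stretches are shown because only these 4 of the 8 held an exact match. The windows of Phlda3, Bbc3, Sesn2 and Gdf15 held none. The decamer is in capitals, each stretch is written along the strand of its gene, and each lies before the start.
Cdkn1a, chr17:29090881-29090962, plus strand: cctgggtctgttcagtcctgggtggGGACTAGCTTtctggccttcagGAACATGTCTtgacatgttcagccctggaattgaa
Mdm2, chr10:117710910-117710969, minus strand: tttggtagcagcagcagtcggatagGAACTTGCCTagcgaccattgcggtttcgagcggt
Ccng1, chr11:40755437-40755496, minus strand: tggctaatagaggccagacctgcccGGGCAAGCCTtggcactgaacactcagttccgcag
Bax, chr7:45467065-45467124, minus strand: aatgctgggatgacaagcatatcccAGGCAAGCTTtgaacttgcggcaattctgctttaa
Only the Cdkn1a window shown held a pair of decamers at most 13 bases apart, here with 12 bases between them, as 24 of all windows (0.0731%) did. Cdkn1a had another window further downstream (chromosome 17, 29093519 to 29093818), which held no decamer. A match of letters is a description and not a binding site, and decamers outside these windows were not searched for. Only exact matches were counted, so decamers with a mismatched letter went unmarked. In the Cdkn1a stretch, the 10 letters right after the last capitals depart from the consensus only in their first letter.

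Library totals ran from 22919523 to 34013875 counts. The astrocyte label was checked against 7 astrocyte markers, whose summed level ran from 12078 to 14842 counts per 1000000 (CPM) in the libraries labelled astrocytes, from 923 to 965 CPM in control and from 671 to 786 CPM in BAL101553. Those libraries also held 6 oligodendrocyte markers at a sum of 10498 to 13039 CPM and 8 microglia and macrophage markers at 446 to 963 CPM, so they were not astrocyte RNA alone. In the SB28 libraries 5 of the 7 astrocyte markers reached at most 0.03% (Slc1a2) to 0.603% (Aldoc) of their means in the libraries labelled astrocytes, whereas Aldh1l1 reached 17.5% and Gja1 59.1%. The myelin gene Mbp reached at most 0.0452%, the microglia gene C1qa 0.621% and the endothelial gene Cldn5 2.31%. Some other markers stood higher relative to those libraries. The endothelial marker Cdh5 was at 485 to 815 CPM in SB28, above its mean of 20.5 CPM in the libraries labelled astrocytes. Flt1 was at 23.8 to 69.7 CPM against 51.7 CPM. Kdr and Pecam1 reached at most 3.26 and 1.19 CPM against 23.1 and 24.1 CPM, and the microglia gene P2ry12 2.68 CPM against 68.3 CPM. From control to BAL101553 the summed level of the microglia list went from 2.87 to 4.56 CPM to 2.03 to 2.94 CPM, that of the oligodendrocyte list from 18.4 to 20.5 CPM to 15.1 to 18.6 CPM, and that of 5 neuron markers from 1.53 to 5.63 CPM to 5.43 to 7.39 CPM. In SB28, Cnp made up 81.9% of the oligodendrocyte sum and Gad1 79.9% of the neuron sum. Mean Gad1 was higher in BAL101553 than in the libraries labelled astrocytes, at 5.02 against 2.21 CPM. Rbfox3, Snap25 and Slc17a7 had too few reads to test between BAL101553 and control. The SB28 sum of the astrocyte list was 94.8% Gja1, and that of the 5 endothelial markers was 94.1% Cdh5. Both genes were lower with BAL101553, at a log2 fold change of -0.37 for Gja1 and -0.52 for Cdh5; of the other markers Slc1a3 passed upwards and P2ry12 downwards, both at under 3 CPM, and the part of these shifts in the results below was not tested.

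Trp53 itself, the target of the knock-down, (chromosome 11, 69580359 to 69591873, GRCm38) was measured at 3.40, 3.01 and 3.25 CPM in the control libraries and at 8.17, 9.50 and 9.09 CPM in the BAL101553 libraries. The libraries labelled astrocytes stood at 32.9, 32.1 and 30.1 CPM. The 3 groups did not overlap, and the spread within each was small, at 3.22 ± 0.192 CPM (SD, n = 3) in control, 8.92 ± 0.683 CPM in BAL101553 and 31.7 ± 1.43 CPM in the libraries labelled astrocytes. Trp53 rose 2.78-fold with BAL101553, a log2 fold change of 1.48 (SE 0.17, adjusted p = 0.00728, edgeR quasi-likelihood test with Benjamini-Hochberg adjustment). It passed the test in each of the 6 fits that left out 1 library, with adjusted p between 0.0104 and 0.0399, but in 4 of the 9 that left out 1 library in both groups, where adjusted p reached 0.132. Of the 5 astrocyte markers tested in the same libraries, Slc1a3 rose, from 0.581, 0.596 and 0.709 CPM to 1.28, 2.93 and 1.39 CPM (log2 fold change 1.57, adjusted p = 0.0403), Gja1 fell and 3 did not pass, among them Aldh1l1 at -0.66 and Aldoc at 0.67 on the log2 scale. Gfap and Aqp4 had too few reads to test, and the part of astrocyte RNA in the Trp53 result was not tested. A further 1.79 on the log2 scale separated the libraries labelled astrocytes from BAL101553 (SE 0.11, adjusted p = 1.68e-06). Reads of the pseudogene Trp53-ps could be counted with Trp53, and how the counting treated shared reads was not given in the sources used here.

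**Figure D1:**
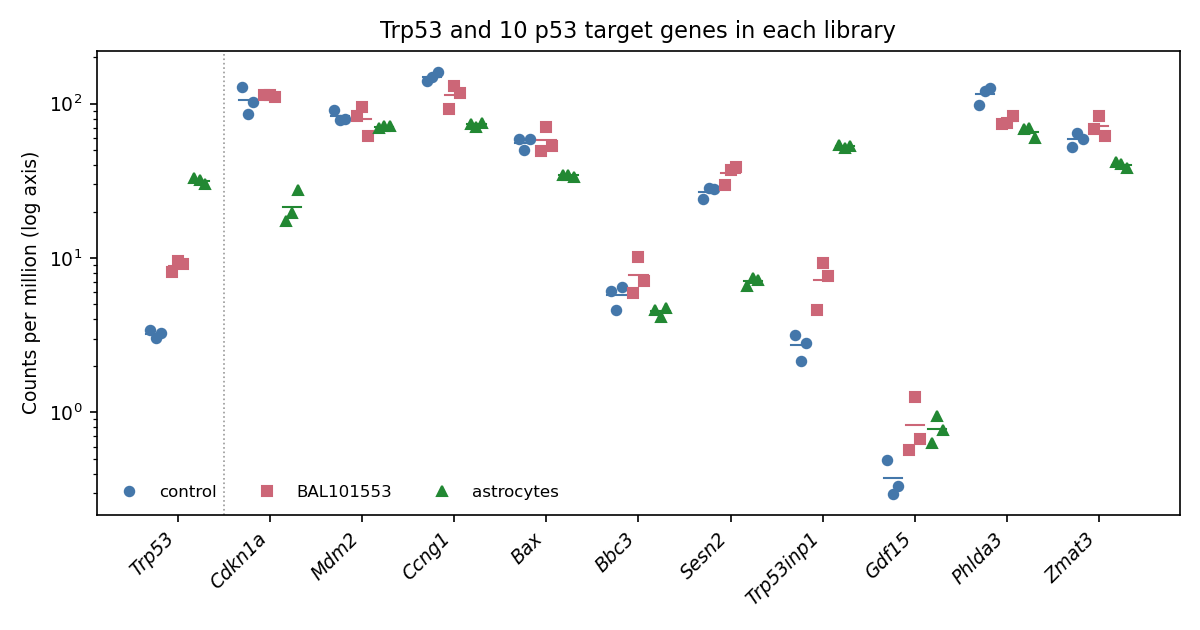
Level of Trp53 and of the 10 p53 target genes in each library, in CPM on a log axis; each point is 1 library, horizontal bars are group means (n = 3), and circles, squares and triangles are control, BAL101553 and libraries labelled astrocytes. Trp53 separates into 3 levels, Cdkn1a overlaps between control and BAL101553, and Trp53inp1 rises from 2.16 to 3.17 CPM in control to 4.62 to 9.23 CPM with BAL101553.

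The comparison of BAL101553 with control SB28 cells asked how these targets stood in tumors that had grown under the drug. Only 2 of the 10 passed the test, Trp53inp1 upwards and Phlda3 downwards, while Cdkn1a, the gene of the cell cycle inhibitor p21, differed by less than its error. Over all 12633 genes tested, 14.7% passed, 8.64% higher and 6.09% lower, so 1 of 10 in each direction is a share near that of all genes. The log2 fold change was above 0 for 7 of the 10 and below 0 for 3, with a median of 0.19 beside 0.02 over all genes. The groups did not overlap for 5 of the 10, against 39.7% of all genes, and 5 of the 10 had an unadjusted p under 0.05, against 34.1% of all genes. In bulk RNA, fewer cells of a type and less RNA per cell cannot be told apart, and since nothing states that the 3 libraries of a group came from separate mice, the p-values measure only the spread between these libraries.

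Trp53inp1 (chromosome 4, 11156431 to 11174379) encodes a p53-induced stress protein that promotes cell death and autophagy. Its level was 3.17, 2.16 and 2.83 CPM in control and 4.62, 9.23 and 7.64 CPM in BAL101553. Each treated library stood above each control library, with BAL101553 1 the lowest of the treated. The gene rose 2.65-fold, a log2 fold change of 1.40 (SE 0.30, 95% interval 0.72 to 2.09, adjusted p = 0.0235, edgeR). The call was lost in 4 of the 6 fits that left out 1 library, with adjusted p of 0.0609 without control 1, 0.0616 without control 2, 0.0884 without control 3 and 0.0666 without BAL101553 3. Across those 6 fits the log2 fold change ran from 1.18 to 1.64.

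Phlda3 (chromosome 1, 135766119 to 135769136) encodes a protein of a single pleckstrin homology domain that competes with Akt for membrane lipids and so represses Akt. Control libraries had 98.4, 120 and 127 CPM, and BAL101553 libraries had 73.7, 74.5 and 83.1 CPM. All treated libraries lay below all control libraries. The gene fell to 0.674 of its control level, a log2 fold change of -0.57 (SE 0.11, 95% interval -0.83 to -0.31, adjusted p = 0.0199, edgeR). The adjusted p came to 0.0847 when control 3 was left out and to 0.0538 when BAL101553 1 was, and the other 4 fits without a library kept the call.

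The other growth-arrest genes of the set did not pass. Cdkn1a stood at 127, 86.2 and 102 CPM in control and at 114, 114 and 111 CPM with BAL101553. The treated libraries lay inside the range of the controls and spread far less, with a coefficient of variation of 1.59% against 19.6%. Its log2 fold change was 0.11 (SE 0.14, adjusted p = 0.612), with a 95% interval from -0.21 to 0.42 that holds no 2-fold change in either direction. Ccng1, which encodes cyclin G1, a partner of a phosphatase that acts on Mdm2, had 141, 148 and 161 CPM in control and 92.5, 131 and 118 CPM with BAL101553. Each treated value was below each control value, yet the difference of -0.39 on the log2 scale missed the threshold (SE 0.13, adjusted p = 0.0858). It passed by DESeq2, at an adjusted p of 0.0416 in a range of 0.0416 to 0.154 over the alternatives that kept all 6 libraries, and without BAL101553 2, at 0.0430.

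Among the apoptosis genes, Bax encodes the pore-forming protein of the mitochondrial outer membrane and Bbc3 encodes Puma, a BH3-only activator. Bax had 59.4, 49.8 and 58.8 CPM in control and 49.2, 71.0 and 53.1 CPM with BAL101553. The treated range enclosed the control range, and the log2 fold change was 0.05 (SE 0.15, adjusted p = 0.831). Bbc3 had 6.08, 4.58 and 6.50 CPM in control and 5.97, 10.1 and 7.09 CPM with BAL101553, where the library with the highest value was again BAL101553 2. The groups overlapped, at a log2 fold change of 0.44 (SE 0.24, adjusted p = 0.243).

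Mdm2, the ligase that p53 induces against itself, had 91.3, 78.1 and 79.4 CPM in control and 82.8, 95.3 and 62.0 CPM with BAL101553. Treated libraries held both the highest and the lowest value of the 6. The log2 fold change was -0.04 (SE 0.16, 95% interval -0.41 to 0.32, adjusted p = 0.862), and it turned to 0.04 when libraries were scaled by their totals alone. Zmat3, which encodes an RNA-binding zinc finger protein, had 52.3, 64.9 and 59.4 CPM in control and 69.0, 82.7 and 61.6 CPM with BAL101553. Only BAL101553 3 lay within the control range, and the log2 fold change of 0.28 did not pass (SE 0.13, adjusted p = 0.186).

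Sesn2 and Gdf15 are among the targets shared with the Atf4 stress response. Sesn2, a stress-induced inhibitor of the growth kinase mTORC1, had 24.0, 28.4 and 28.1 CPM in control and 29.9, 37.3 and 38.7 CPM with BAL101553. Its groups did not overlap, and its log2 fold change of 0.40 was just outside the threshold (SE 0.13, adjusted p = 0.0795). Gdf15, a secreted stress hormone of the TGF-beta superfamily, had the fewest reads of the 10, with 11, 8 and 8 reads in control and 17, 32 and 23 reads with BAL101553. These are 0.491, 0.298 and 0.333 CPM against 0.574, 1.25 and 0.668 CPM, again without overlap. The log2 fold change was 1.15, but with so few reads its error was the largest of the set (SE 0.44, 95% interval 0.13 to 2.16, adjusted p = 0.111).

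**Figure D2:**
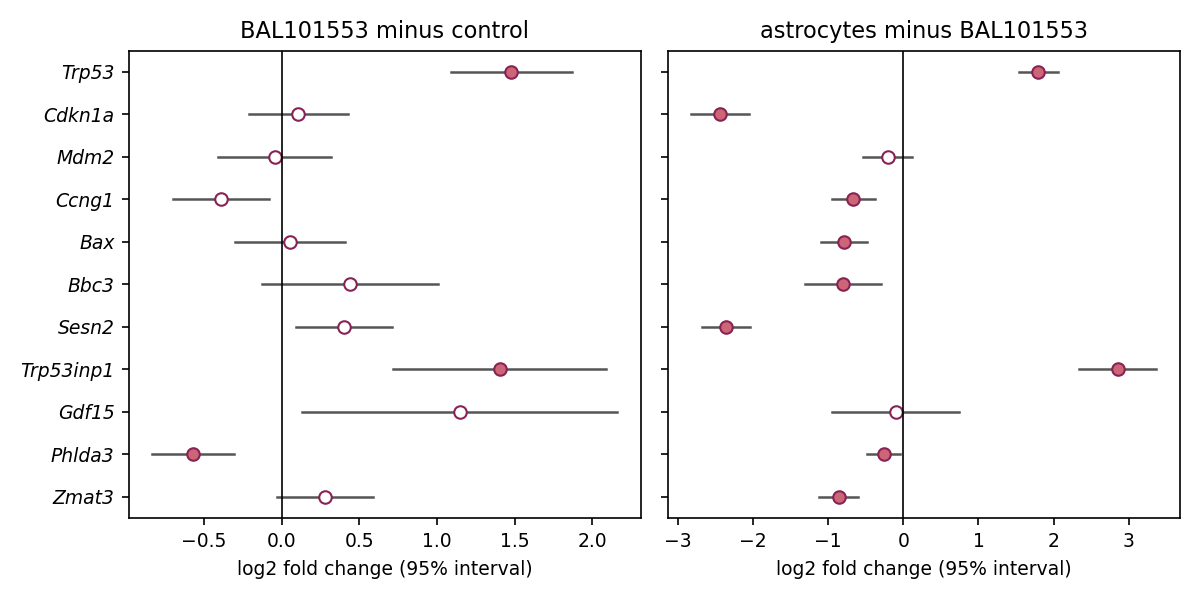
Fitted log2 fold change of Trp53 and the 10 targets with its 95% interval, for BAL101553 minus control on the left and for libraries labelled astrocytes minus BAL101553 on the right; filled points have an adjusted p under 0.05 and open points do not. On the left only Trp53, Trp53inp1 and Phlda3 are filled, and on the right Mdm2 and Gdf15 are the open points. The panels share the BAL101553 libraries and have different axis ranges.

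The number of targets called changed when single libraries were left out, and why it changed was not tested. Without control 3 none of the 10 passed and 193 genes passed in all, and with all 9 ways of leaving out 1 library in both groups the number of targets called was 0 or 1. At an unadjusted p under 0.05 there were 5 targets with all 6 libraries. Scaled by library totals, 1456 of the 1881 genes called were higher, against 1091 of 1860 with TMM scaling, and the same number of targets, 2, passed.

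**Figure D3:**
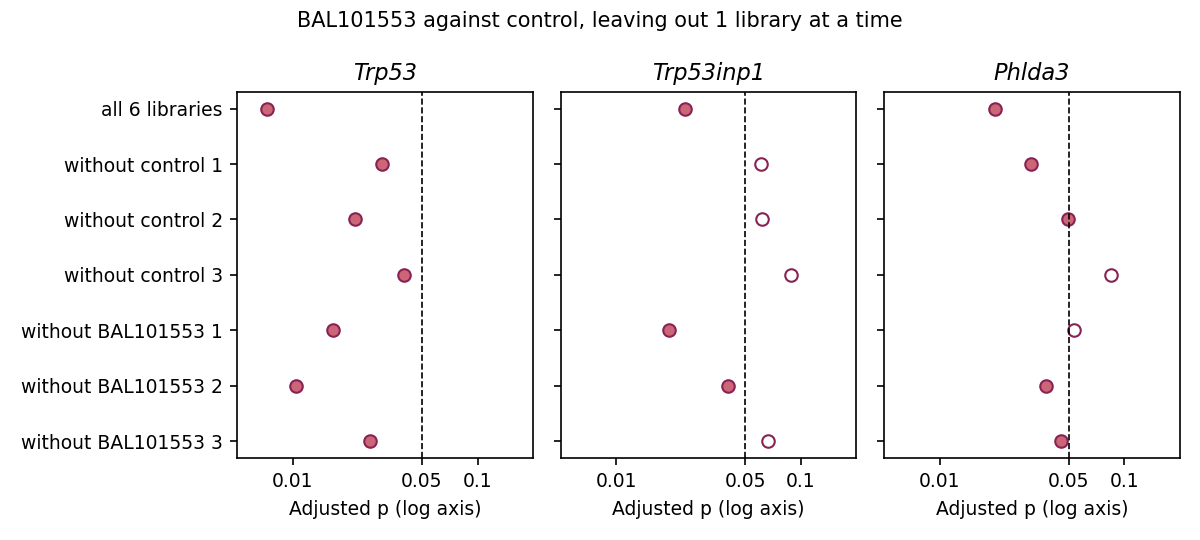
Adjusted p of Trp53, Trp53inp1 and Phlda3 between BAL101553 and control, on a log axis, with all 6 libraries and with each library left out in turn; the dashed line is 0.05 and filled points lie below it. Trp53 stays below the line in all 7 fits, Trp53inp1 in 3 and Phlda3 in 5.

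Of the 22 further p53 targets, 2 rose, 2 fell and 18 did not pass, with a median log2 fold change of -0.03. The share called was 18.2%, near the 14.7% of all genes. Gadd45a, a growth-arrest and DNA-damage gene, rose from 35.4, 27.6 and 31.0 CPM to 50.4, 60.0 and 58.2 CPM, without overlap (log2 fold change 0.85, adjusted p = 0.00995). Ephx1, an epoxide hydrolase, rose by 0.76 on the log2 scale (adjusted p = 0.0179) and the adenylate kinase Ak1 fell by 0.42 (adjusted p = 0.0233). Perp, a desmosomal protein needed for some p53-dependent cell death, fell from 1.47, 0.819 and 2.13 CPM to 0.169, 0.196 and 0.232 CPM, a log2 fold change of -2.84 at a low level (adjusted p = 0.0125). Without control 3 none of the 4 passed, with Gadd45a and Perp at 0.0540, and Ak1 was also lost without control 1 or BAL101553 1, and Ephx1 without control 1 or BAL101553 3. Across the fits that left out 1 library, between 0 and 7 of the 22 passed.

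Of 17 genes for p53 and its regulators, 15 were tested, since Trp63 and Trp73 had too few reads in SB28. Beside Trp53 itself, Mdm4 and Pidd1 rose and none fell, with a list median of 0.15. That is 20% of those tested, near the 14.7% of all genes. Mdm4, the Mdm2 relative that blocks the p53 activation domain, went from 44.4, 37.9 and 38.3 CPM to 62.3, 79.7 and 77.6 CPM, without overlap (log2 fold change 0.87, adjusted p = 0.00934). Without control 3 its adjusted p was 0.0524. Pidd1, the scaffold of the PIDDosome that cleaves Mdm2 through caspase-2 when extra centrosomes are present, stood at 1.61, 2.12 and 2.0 CPM and then at 3.51, 4.42 and 3.54 CPM. It rose by 1.004 on the log2 scale (adjusted p = 0.0311), and its call was lost in all 6 fits that left out 1 library, with adjusted p from 0.0551 to 0.105. Cdkn2a, singled out after its values were seen, was abundant in all SB28 libraries, at 325 to 437 CPM in control and 361 to 424 CPM with BAL101553, and at 0.141 to 1.70 CPM in the libraries labelled astrocytes. The counts do not separate its Arf and Ink4a transcripts.

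Of 12 BCL2 family genes outside the set, 10 were tested, of which 3 rose and 2 fell, with a median of 0.08. That is 50% of those tested, beside 14.7% of all genes, and the difference in share was not tested. Bmf, a BH3-only protein that responds to cytoskeletal stress, rose from 2.01, 0.744 and 1.29 CPM to 4.42, 5.36 and 4.15 CPM, without overlap (log2 fold change 1.80, adjusted p = 0.0199). The survival gene Bcl2l2 also rose (0.66, adjusted p = 0.00840), as did the BH3-only gene Bid (0.45, adjusted p = 0.0414). The pore-forming Bak1 fell (-0.55, adjusted p = 0.0132), as did its relative Bok (-0.72, adjusted p = 0.0455). Members that promote and members that restrain apoptosis were thus among the genes that rose, and the 2 that fell both promote it. Without control 3 none of these 5 passed, Bmf was also lost without BAL101553 3 (0.0316 to 0.0859 over the 6 fits), and Bid and Bok were lost in all 6 fits.

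DREAM is the repressor complex through which p21 shuts down cell cycle genes. None of 16 such genes tested passed by the quasi-likelihood test, beside 14.7% of all genes. Of the 16, 4 had an unadjusted p under 0.05, beside 34.1% of all genes, and the median log2 fold change was -0.08. DESeq2 called 3 (1 higher, 2 lower), the edgeR exact test 2 (1 higher, 1 lower) and limma-trend 0. The lowest p-values belonged to Cdk1, the mitotic kinase, at 115, 114 and 127 CPM in control and 89.5, 105 and 83.8 CPM with BAL101553 (log2 fold change -0.35, adjusted p = 0.0650), and to the S phase factor E2f1 (-0.25, adjusted p = 0.0687). Mki67, the proliferation marker with the largest difference of the list, named after its values were seen, went the other way, from 125, 111 and 127 CPM to 130, 215 and 171 CPM (0.51, adjusted p = 0.0813). In none of these 3 genes did the groups overlap, and the differences did not pass. Without overlap were 5 of the 16 genes, beside 39.7% of all genes.

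Of 10 stress genes under Atf4, 3 rose and none fell, with a median of 0.41. The share called was 30%, beside 14.7% of all genes, and the difference in share was not tested. Chac1, a glutathione-degrading enzyme, went from 27.0, 16.4 and 26.3 CPM to 41.9, 63.6 and 51.8 CPM, without overlap (log2 fold change 1.18, adjusted p = 0.0180). The pseudokinase Trib3 rose from 30.5, 18.6 and 29.6 CPM to 49.0, 56.3 and 64.1 CPM (1.11, adjusted p = 0.0149), and Atf4 itself rose by 0.35 (adjusted p = 0.0480). Without control 3 none of the 3 passed, Chac1 was also lost without BAL101553 3, and Atf4 was lost in all 6 fits. Neither Sesn2 nor Gdf15, given above, passed in the same libraries.

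**Figure D4:**
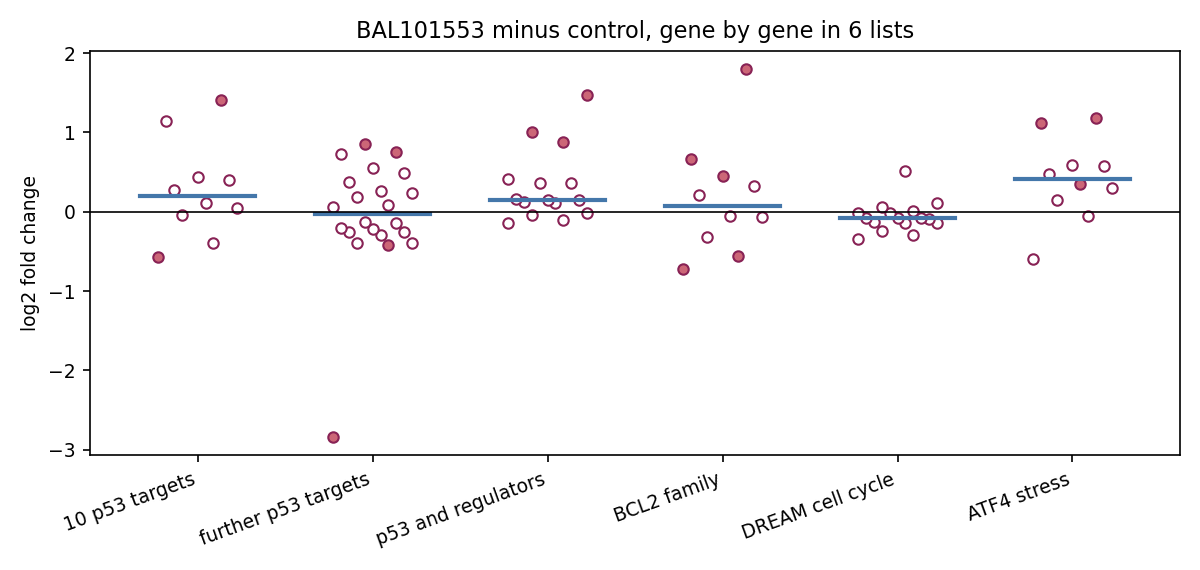
Log2 fold change of BAL101553 minus control for each tested gene of 6 lists, where each point is 1 gene, filled points have an adjusted p under 0.05, horizontal position within a list has no meaning, and the blue bar is the list's median. Medians run from -0.08 for the DREAM cell cycle genes to 0.41 for the Atf4 stress genes, and the lowest point is Perp at -2.84.

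The libraries labelled astrocytes were then set against the BAL101553 tumor cells, which asks how the targets stood in brain cells other than the tumor line. These groups differ in cell type throughout: 85.1% of 15314 genes tested passed, 46.3% higher and 38.9% lower. Of the 10 targets, 7 were lower in the libraries labelled astrocytes, 1 was higher and 2 did not pass. A share of 8 in 10 called in either direction is near that of all genes. By direction, 7 of 10 lower and 1 of 10 higher stand beside 38.9% and 46.3% of all genes, a difference that was not tested. The median log2 fold change was -0.73 beside 0.18 over all genes tested. The groups did not overlap for 8 of the 10, against 87.9% of all genes. Scaling by library totals moved the median of all genes to 0.39 and that of the targets to -0.52.

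Cdkn1a and Sesn2 had the largest differences downwards. Cdkn1a was at 17.4, 19.4 and 27.4 CPM in the libraries labelled astrocytes, far below the 111 to 114 CPM of the treated tumor cells (log2 fold change -2.43, SE 0.16, adjusted p = 2.74e-06, edgeR). Sesn2 was at 6.56, 7.42 and 7.17 CPM, also without overlap (-2.36, SE 0.14, adjusted p = 1.24e-06). Trp53inp1 went the other way, with 54.0, 51.4 and 53.2 CPM, and was higher than in BAL101553 tumor cells by 2.85 on the log2 scale (SE 0.22, adjusted p = 6.17e-06). It was the only target above 0 in this comparison, as Trp53 was. All 3 calls held in the 6 fits that left out 1 library.

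Zmat3 was at 41.9, 40.4 and 38.0 CPM in the libraries labelled astrocytes and was lower by a log2 fold change of -0.86 (adjusted p = 0.000135). The apoptosis genes were lower as well, Bbc3 at 4.57, 4.17 and 4.78 CPM (-0.80, adjusted p = 0.00848) and Bax at 34.7, 34.7 and 33.3 CPM (-0.79, adjusted p = 0.000652). Ccng1, at 73.7, 71.0 and 75.5 CPM, differed by -0.67 (adjusted p = 0.00103). Bbc3 lost its call in 2 of the 9 fits that left out 1 library in both groups (adjusted p up to 0.0576). For each of these 4 genes no library of one group reached the range of the other, as was so for 87.9% of all genes tested.

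Phlda3 was at 68.1, 69.5 and 60.0 CPM, just under the treated tumor cells, with a log2 fold change of -0.26 and an adjusted p of 0.0291. That call was lost in 7 of the 10 alternatives that kept all 6 libraries, by DESeq2 at 0.0573, and without BAL101553 3, astrocytes 1 or astrocytes 3, at 0.0920, 0.0610 and 0.118. The difference shrank to -0.08 under upper quartile scaling, to -0.06 under library totals and to -0.038 with at least 10 counts in every library, and its adjusted p ran from 0.0227 to 0.705 over those 10. Mdm2, at 69.7, 71.9 and 71.6 CPM, overlapped the treated tumor cells (log2 fold change -0.20, 95% interval -0.53 to 0.12, adjusted p = 0.204), but passed without BAL101553 3, at -0.35 and an adjusted p of 0.00726. Gdf15, at 20, 27 and 20 reads, overlapped them too (-0.10, 95% interval -0.94 to 0.74, adjusted p = 0.805). The sign of both turned under library-total scaling, to 0.01 for Mdm2 and 0.11 for Gdf15.

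The same lists were read in this comparison. All 16 DREAM cell cycle genes were lower in the libraries labelled astrocytes, with a median log2 fold change of -4.49 and a summed level of 64.3 to 72.8 CPM against 1214 to 1433 CPM in BAL101553. Of the 22 further p53 targets, 10 were higher and 11 lower, with a median of -0.24. Of the 17 regulators, 5 were higher and 10 lower, and of 11 BCL2 family genes tested 5 were higher and 6 lower. Among the 10 Atf4 stress genes 2 were higher and 6 lower. The shares called in either direction were 100% of the DREAM genes, 95.5% of the further targets and 88.2% of the regulators. They were 100% of the tested BCL2 family genes and 80% of the Atf4 genes. Over all genes 85.1% passed, 46.3% higher and 38.9% lower, so a call in either direction was common throughout. By direction each of these lists had more genes lower than higher, unlike all genes, and that difference was not tested.

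Levels between genes were compared per length, as transcripts per 1000000 (TPM) from the union of annotated exons (GENCODE vM21, GRCm38). In control cells Phlda3 was the highest of the 10 at 250 TPM, followed by Ccng1 at 144, Bax at 120 and Cdkn1a at 99.8 TPM, of which Bax and Cdkn1a overlapped between libraries. Mdm2 at 55.1, Sesn2 at 26.2, Zmat3 at 17.4 and Bbc3 at 9.07 TPM came next without overlap, and Trp53inp1 at 1.42 and Gdf15 at 0.681 TPM were the lowest. Trp53 lay among the low genes, at 2.69 TPM.

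With BAL101553 the order was nearly kept: Phlda3 led at 187 TPM, Bax, Ccng1 and Cdkn1a followed at 138, 122 and 120 TPM without being separable, and Trp53inp1 at 4.18 and Gdf15 at 1.69 TPM again came last. In the libraries labelled astrocytes Phlda3 was highest too, at 192 TPM, and Gdf15 lowest, at 1.93 TPM. Cdkn1a there stood at 27.4 TPM, below Mdm2 at 63.6 and Trp53inp1 at 37.1 TPM, whereas it was above both in SB28. Bbc3 at 9.66 and Sesn2 at 9.24 TPM overlapped.

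Of the 4 targets with a decamer in the promoter window, none passed between BAL101553 and control by the quasi-likelihood test. Over all genes 14.7% passed, and 4 genes are too few to tell from that share. Of the 2 targets that passed, Phlda3 had a window without a decamer and Trp53inp1 had no window in the table used, as was so for Zmat3. Between libraries labelled astrocytes and BAL101553, Cdkn1a, Ccng1 and Bax passed and Mdm2 did not, beside 85.1% of all genes. Cdkn1a shares 273 exonic bases with an antisense transcript and Bax shares 192 with a neighbouring gene of the same strand, and their counts are uncertain to that extent, because the strand setting and the treatment of shared reads were not given in the sources used here.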

How the data were processed

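RNA of 9 libraries was sequenced, 3 per group. The authors made stranded libraries, mapped reads with TopHat to mm10, used PicardTools for summaries and HTSeq 0.6.1 and featureCounts for counting, and the deposited values are whole-number counts per gene, not normalized; which counter made the table and its annotation were not given in the sources used here. The table has 27 rows with date-like names, from 25 gene symbols, holding 0.44% or less of any library. All columns matched a sample label. The members and lists were chosen with earlier results of these data known.

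Each comparison was fitted on its own 6 libraries in R 4.3.3 with edgeR 4.0.16: filterByExpr, TMM, quasi-likelihood F test, two-sided, Benjamini-Hochberg adjustment over all genes tested, threshold 0.05. Levels are counts per 1000000 (CPM) on library sizes scaled by TMM over all 9 libraries. 1 read was worth 0.029 to 0.0447 CPM, and no library had fewer than 22919523 counts. Replicates were compared for duplicate deposits and differed beyond sampling noise: chi-square per degree of freedom was 14.3 to 64.9. Sequences came from RefSeq windows, and 23350 table names matched GENCODE by symbol.

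Alternatives were DESeq2 1.42.0, the edgeR exact test, limma-trend (limma 3.58.1), 3 other scalings, 2 other filters, all 9 libraries in one fit, the replicate number as a block, and leaving out libraries. In simulated data for BAL101553 against control, the test recovered 126 of 200 genes changed 2-fold among 12530 tested, with 13 false calls. Named genes were the 10 targets and Trp53, and of each further list those past the threshold in the drug comparison, at most 6 by size of change, or the 2 of lowest p.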

Additional observations from a re-analysis of the deposited data

How the results depend on the processing

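Between BAL101553 and control, 1860 genes passed in all. DESeq2 called 2832 and a fit of all 9 libraries 3022, each with 3 of the 10 targets, Ccng1 being the added one (adjusted p = 0.0416 and 0.0418); the other alternatives with all 6 libraries kept the count within 1.5 times. Leaving out 1 library, or 1 in both groups, gave 1 to 1757 genes and 0 to 3 targets. With 1 library left out the genes called were 458 without control 1, 1260 without control 2, 193 without control 3, 1133 without BAL101553 1, 1712 without BAL101553 2 and 668 without BAL101553 3. The cause of these shifts was not tested, and each of these fits also had fewer samples. Trp53 passed in 4 of the 9 fits with 1 library left out in both groups, Phlda3 in 1 and Trp53inp1 in 0.

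With the replicate number as a block, 1371 genes and 1 target (Phlda3) passed between BAL101553 and control, and Trp53inp1 stood at an adjusted p of 0.0511. Same-numbered libraries deviated together weakly (correlations 0.102, 0.006 and 0.113), so the numbers were not taken as a pairing.

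The sign of some values near 0 turned. Between BAL101553 and control, Mdm2 was 0.036 by library totals and -0.24 to 0.19 with libraries left out, Cdkn1a -0.032 to 0.28 and Bax -0.21 to 0.19. Between libraries labelled astrocytes and BAL101553, Gdf15 was 0.078 by upper quartile, 0.11 by library totals, 0.13 with at least 10 counts in every library and -0.48 to 0.42 with libraries left out, and Mdm2 was 0.0052 by library totals and 0.019 under that filter. The same filter left Gdf15 untested between BAL101553 and control. Between libraries labelled astrocytes and BAL101553 every alternative gave 7 or 8 targets and a count of genes within 1.5 times. Of the 8 targets called, 6 to 8 were still called: Phlda3 was lost most often, Bbc3 in 2 of the 9 fits with 1 library left out in both groups, and Mdm2 was added in the 4 fits without BAL101553 3.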
